A study of Polypterus senegalus with 8 samples.

Results

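A set of 100 assembly components is described here. Their mRNA level was higher at every sampled stage of regrowth than in the uninjured pectoral fin of the bichir, by a similar amount at each. A component is the unit into which the assembler collects related transcripts, and it stands in for a gene here because the reads were assembled without a genome. The 100 members were chosen by their measured values among 94050 components. Of these, 10163 reached at least 10 CPM (the reads of a component per 1000000 reads of its library) at 3, 7 and 14 days post amputation (dpa), and 6983 of them also kept their 3 levels within 1.5-fold of each other. Those 6983 were ranked by their lowest regenerating level over their level at 0 dpa, as log2(CPM + 1), and the first 100 were taken. Their height over 0 dpa and their evenness are therefore what selected them and are given below as a description.

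The fins came from Polypterus senegalus bought from an aquarium supplier, a ray-finned fish from a basal lineage. Part of the pectoral fin was cut off under MS222 anaesthesia, and the study names no transgene and no other drug treatment. Tissue was taken from uninjured fins (0 dpa) and from regenerating fins at 3, 7 and 14 dpa, and the labels give no age for the fish. Each stage was a single mRNA library made from pooled tissues, so animals cannot be compared and no difference below has a replicate check. Intervals are 95% intervals that cover counting error only. Unless another scaling is named, folds, ratios between stages and their intervals use CPM by library totals and can differ under another scaling.

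Appendage regrowth in fish and salamanders proceeds through wound closure, the build-up of a blastema, which is a mass of proliferating cells under the wound epidermis, and its outgrowth and patterning. Genes with a role in a single step can peak and fade, whereas genes in use throughout can stay high once switched on. Cell surface proteoglycans, integrins, gap junction channels and the kinases behind them are among the molecules through which cells of a regenerating fin read their matrix and their neighbours.

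The mRNA libraries held 39121698, 38095865, 43350285 and 38377535 reads at 0, 3, 7 and 14 dpa, so that 1 read was worth 0.0231 to 0.0262 CPM. Muscle marker components summed to 11421 CPM at 0 dpa and to 694 to 823 CPM later. Epidermis markers summed to 3369 CPM at 0 dpa and 3636 to 5053 CPM later, and all 12 of these components had reads in every library. Between 0 dpa and the later libraries the median component of the 28836 with a mean of at least 1 CPM was higher by 1.04, 0.85 and 1.06 on the log2(CPM + 1) scale at 3, 7 and 14 dpa, and by 0.16, 0.18 and 0.14 when libraries were scaled by a trimmed mean of log ratios. A difference measured against library totals thus contains a general shift of about this size. Whether the loss of muscle reads contributed to it was not tested. Of 10 epidermis marker components with a mean of at least 1 CPM, 5 were over 1.5-fold higher at all 3 later stages and 0 lower under library totals. Under the trimmed mean 0 were higher and 4 lower. Of all 28836 components 56.4% were higher and 6.63% lower under library totals, and 19.9% and 17.4% under the trimmed mean. In such bulk libraries fewer cells of a type and less RNA per cell cannot be told apart.

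The members together took 0.0618% of the reads of the 0 dpa library, and 0.830%, 0.691% and 0.717% of those of the 3, 7 and 14 dpa libraries. Their median level was 2.72 CPM at 0 dpa, with a range from 0.230 to 75.7 CPM. It was 46.6 CPM at 3 dpa (11.6 to 1139), 36.5 CPM at 7 dpa (10.6 to 824) and 41.6 CPM at 14 dpa (10.3 to 792). In all regenerating libraries 17 members were at 100 CPM or more and 42 at 50 CPM or more, above the minimum of 10 CPM that the rule set. At 0 dpa 19 members were under 1 CPM, 61 lay from 1 to 10 CPM and 20 were at 10 CPM or more. Every member was detected in uninjured fin, by 9 to 2962 reads.

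**Figure D1:**
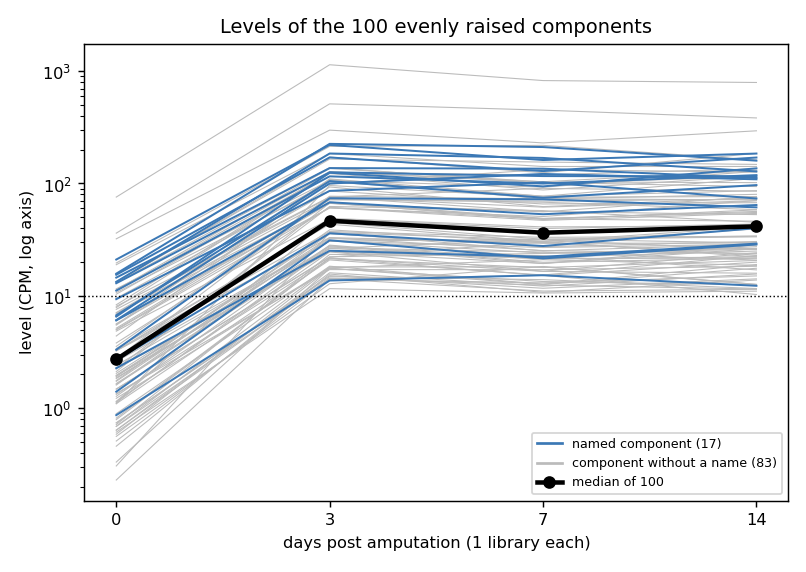
Levels of the 100 members in the 4 mRNA libraries, in CPM on a log axis, with 1 line for each member, the 17 named members in blue and the median of all 100 in black. Stages are evenly spaced and the dotted line marks 10 CPM. The median goes from 2.72 CPM at 0 dpa to 46.6, 36.5 and 41.6 CPM at 3, 7 and 14 dpa.

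Relative to 0 dpa the members were a median 15.2-fold higher at 3 dpa (range 9.18 to 119), 12.9-fold higher at 7 dpa (7.14 to 82.0) and 13.8-fold higher at 14 dpa (7.48 to 94.1). On the log2(CPM + 1) scale the medians were 3.40, 3.12 and 3.29, which is 2.36, 2.26 and 2.24 above the median component. Under the trimmed mean the medians were 2.26, 2.20 and 2.09, and the lowest changes of any member were 1.85, 1.82 and 1.61. All 100 members were therefore past 1.5-fold at the 3 stages under either scaling. The rule fixed this count, and nothing is read from it. Among the 28836 components 56.4% were over 1.5-fold higher at all 3 stages and 6.63% were lower, and under the trimmed mean 19.9% were higher and 17.4% lower.

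**Figure D2:**
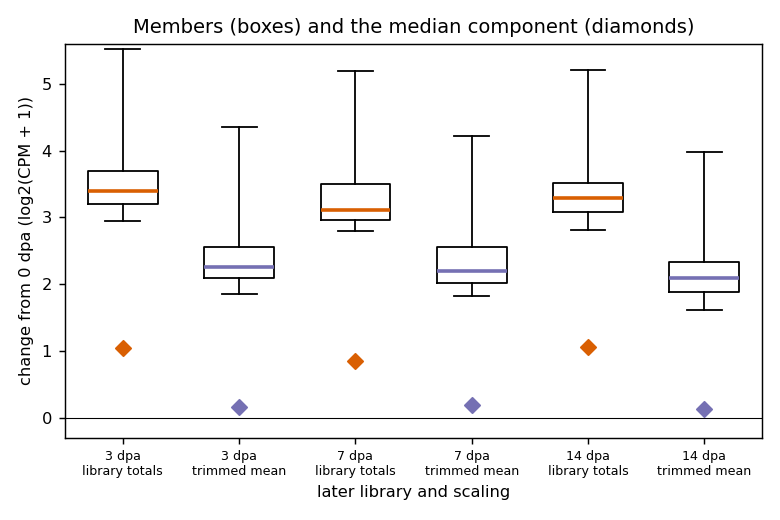
Change from 0 dpa on the log2(CPM + 1) scale at 3, 7 and 14 dpa under library totals and under the trimmed mean. Boxes show the quartiles of the 100 members with whiskers over their whole range, and diamonds the median component, which lies at 1.04, 0.85 and 1.06 under library totals and at 0.16, 0.18 and 0.14 under the trimmed mean.

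The study's tables give a zebrafish gene name to 17 of the 100 members, against 997 of the 6983 even components. Most of those tables list genes that had been picked as changed, partly on these libraries, so having a name is not independent of the level. At 3, 7 and 14 dpa the named members were a median 13.4-, 10.9- and 11.05-fold higher than at 0 dpa. These medians include the components named tnika and batf, whose named transcripts held a small part of the later reads, as given below. They are given here by what their genes do, first those at the cell surface.

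Glypican 4 is a heparan sulfate proteoglycan tethered to the outer membrane, and in zebrafish it is needed for the Wnt-dependent narrowing of the body axis in the gastrula. The gpc4 component, seventh in the ranking, had 6.08, 99.98, 122 and 109 CPM at 0, 3, 7 and 14 dpa. This was 16.4-fold higher at 3 dpa (14.4 to 18.8), 19.99-fold at 7 dpa (17.6 to 22.9) and 17.9-fold at 14 dpa (15.7 to 20.5). It was highest at 7 dpa, and its 3 regenerating levels differed from each other by more than counting error. Syndecan 3 carries the same kind of sugar chain on a membrane-spanning core. The sdc3 component was the more abundant of the pair, with 15.8, 225, 211 and 160 CPM. Its fold over 0 dpa was 14.3 (13.2 to 15.5), 13.4 (12.3 to 14.5) and 10.1 (9.32 to 11.02), and its 14 dpa level was the lowest of the regenerating libraries.

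Integrin alpha 5 pairs with integrin beta 1 to form a receptor for fibronectin. The itga5 component stood at 9.36, 86.0, 102 and 73.5 CPM, or 9.19-fold (8.25 to 10.3), 10.9-fold (9.84 to 12.2) and 7.86-fold (7.05 to 8.79) above 0 dpa. Its 7 dpa level was 1.39 times its 14 dpa level (1.33 to 1.46). EphA7 is a receptor tyrosine kinase for ephrins, ligands held on neighbouring cells. The epha7 component was the least abundant named member, with 34 reads at 0 dpa and 522, 662 and 472 reads later, or 0.869, 13.7, 15.3 and 12.3 CPM. Its 3 dpa level could not be told from either of the others at this depth, with a ratio of 0.897 to 7 dpa (0.798 to 1.01) and of 1.11 to 14 dpa (0.982 to 1.26).

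The zebrafish gene cx43.4 encodes a connexin, the subunit of gap junction channels that join the cytoplasm of adjacent cells. Its component ranked highest of the named members, at 3.32, 73.9, 72.3 and 61.3 CPM. The folds over 0 dpa were 22.2 (18.7 to 26.7), 21.8 (18.3 to 26.1) and 18.5 (15.5 to 22.2). The 3 and 7 dpa levels differed by less than counting error (ratio 1.02, 0.971 to 1.08). Glg1b is the zebrafish form of a Golgi sialoglycoprotein that in other vertebrates binds fibroblast growth factors. The glg1b component had 6.54, 125, 94.3 and 136 CPM and was 20.8-fold higher at 14 dpa (18.4 to 23.7), its highest stage, and 14.4-fold higher at 7 dpa (12.7 to 16.4), its lowest.

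**Figure D3:**
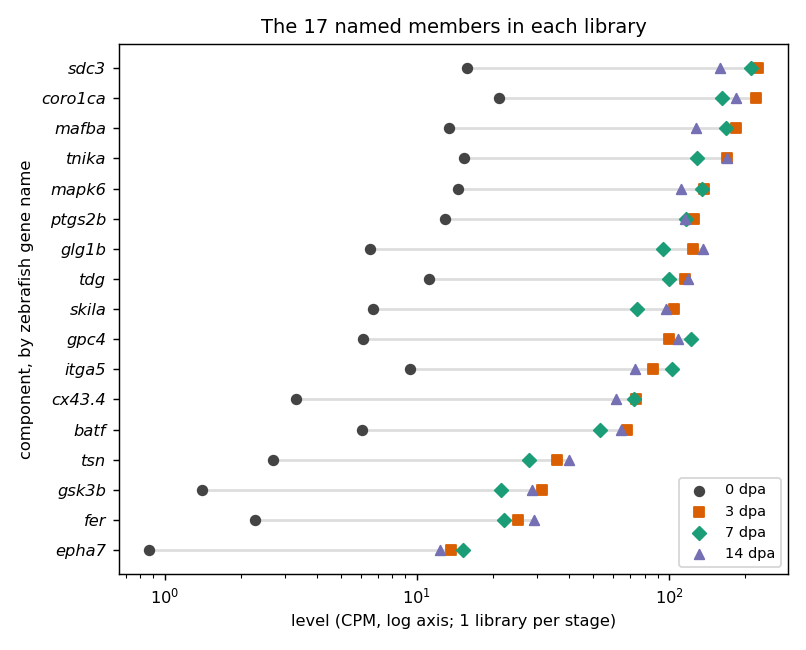
Level of each of the 17 named members in the 4 libraries, in CPM on a log axis, with circles for 0 dpa, squares for 3 dpa, diamonds for 7 dpa and triangles for 14 dpa. For every named member the 3 regenerating levels lie together and to the right of 0 dpa, from epha7 at 12.3 to 15.3 CPM up to sdc3 at 160 to 225 CPM.

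A further group are protein kinases inside the cell. Glycogen synthase kinase 3 beta marks beta-catenin for destruction when Wnt ligands are absent and acts in many other pathways. The gsk3b component rested on 55 reads at 0 dpa and 1190, 934 and 1101 reads later, or 1.41, 31.2, 21.5 and 28.7 CPM. It was 22.2-fold higher at 3 dpa (16.9 to 29.7), 15.3-fold at 7 dpa (11.7 to 20.5) and 20.4-fold at 14 dpa (15.6 to 27.3). Mapk6 is an atypical mitogen-activated kinase also known as ERK3. The mapk6 component had 14.5, 137, 135 and 112 CPM, with 3 and 7 dpa alike within counting error (ratio 1.01, 0.975 to 1.05). Fer is a tyrosine kinase found at cell junctions, and its component stood at 2.27, 25.2, 22.2 and 29.2 CPM, highest at 14 dpa. Tnika is the zebrafish form of a kinase that in mammals works with the TCF transcription factors of the Wnt pathway. The component that carries this name had 15.4, 170, 129 and 170 CPM, although its name rests on transcripts that behaved otherwise, as given below.

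Nuclear proteins made up the next group. Skila is a SKI-like co-repressor that holds back SMAD proteins, the carriers of TGF-beta and activin signals. The skila component went from 6.72 CPM at 0 dpa to 105, 74.7 and 96.8 CPM, or 15.6-fold (13.8 to 17.8), 11.1-fold (9.80 to 12.7) and 14.4-fold (12.7 to 16.4). Mafba is a basic leucine zipper transcription factor that shapes the zebrafish hindbrain, and the mammalian protein directs macrophage differentiation. The mafba component had 13.3, 185, 169 and 128 CPM. Under library totals it was highest at 3 dpa, where it was 13.9-fold above 0 dpa (12.7 to 15.2). Under the trimmed mean it was highest at 7 dpa. Batf belongs to the same broad family and is known from lymphocytes of mammals. The component named batf stood at 6.06, 68.1, 53.3 and 64.4 CPM. Thymine DNA glycosylase cuts mismatched thymine and oxidised methylcytosine out of DNA. Its component, tdg, had 11.1, 116, 99.9 and 119 CPM, with the 3 and 14 dpa levels alike within counting error (ratio 0.975, 0.935 to 1.02).

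The remaining named members serve inflammation, the cytoskeleton and nucleic acid binding. Ptgs2b is a zebrafish form of cyclooxygenase 2, the inducible enzyme of prostaglandin synthesis. Under library totals its component was the most even of the named members, at 13.0, 126, 116 and 115 CPM, a highest to lowest ratio of 1.09 among the regenerating libraries. It was 9.71-fold above 0 dpa at 3 dpa (8.86 to 10.7) and still 8.90-fold above it at 14 dpa (8.11 to 9.77). Coronin 1C binds actin at the edge of moving cells, and the coro1ca component had 21.1, 220, 162 and 185 CPM. Translin binds single-stranded nucleic acids. The tsn component stood at 2.68, 36.1, 27.8 and 40.1 CPM, lowest at 7 dpa and highest at 14 dpa.

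Several of these genes are active in white blood cells as well as in fin tissue, so leukocyte markers were set beside them. The 16 leukocyte marker components summed to 2179 CPM at 0 dpa and to 2000, 3283 and 2051 CPM at 3, 7 and 14 dpa, most of it from a single component, cd74a, with 76885 reads at 0 dpa and 53588 to 110590 reads later. Of the 15 with a mean of at least 1 CPM, 9 were over 1.5-fold higher at all regenerating stages and 2 were lower, and with the trimmed mean these numbers became 5 and 3. The shares higher, 9 of 15 and 5 of 15, stand beside 56.4% and 19.9% of all components. The macrophage receptor csf1ra, picked out after its values were seen, had 30 reads at 0 dpa and 1850, 1040 and 1360 reads later, or 0.767, 48.6, 23.99 and 35.4 CPM, and its regenerating levels were too uneven for the rule. At least 1 read was listed at 0 dpa for all of the markers except 1 of the SIGLEC15 components, and alox5a was listed at 0 at 7 dpa. The part of white blood cells in the levels of mafba, batf, ptgs2b and coro1ca was not tested.

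Evenness was itself part of the rule, and within the 1.5-fold allowed the members still differed. The ratio of the highest to the lowest regenerating level had a median of 1.34 and ran from 1.04 to 1.497, with 6 members under 1.1 and 19 under 1.2. Counting error was smaller than most of these ratios. Under library totals all 3 pairs of stages differed by more than their counting intervals in 44 members. In 48 members 2 pairs did, and in 4 members no pair did. For the named members the numbers were 11 with every pair apart, 5 with 1 pair alike and 1 with 2 pairs alike. Under library totals most members thus had stage pairs further apart than counting error. With 1 library a stage this cannot show that a level changed between stages. Another scaling changes these ratios, and the same counts were not made for all even components. The counts also depend on read depth, so nothing particular to the members is read from them.

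The 3 dpa library held the highest of the regenerating levels for 68 members, the 14 dpa library for 21 and the 7 dpa library for 11. The lowest level fell at 7 dpa for 62 members, at 14 dpa for 31 and at 3 dpa for 7. Among all 6983 even components 40.1% were highest at 3 dpa, 27.4% at 14 dpa and 32.5% at 7 dpa, and 46.1% were lowest at 7 dpa, 34.4% at 14 dpa and 19.4% at 3 dpa. This order depended on the scaling. With the trimmed mean 51 members were highest at 3 dpa, 39 at 7 dpa and 10 at 14 dpa, and of the even components 25.3%, 63.4% and 11.3% were highest at 3, 7 and 14 dpa. Of the named members 10, 3 and 4 were highest at 3, 7 and 14 dpa under library totals and 5, 9 and 3 under the trimmed mean. Those highest at 7 dpa under both scalings were gpc4, itga5 and epha7, and those highest at 14 dpa under both were glg1b, tsn and fer.

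**Figure D4:**
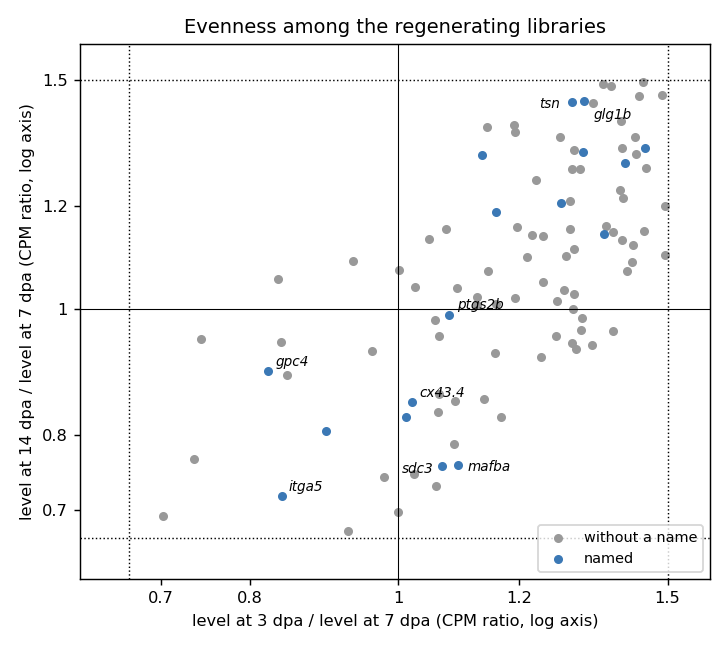
Ratio of the 3 dpa level to the 7 dpa level (horizontal) against the ratio of the 14 dpa level to the 7 dpa level (vertical), both as CPM ratios on log axes, for the 100 members with the named members in blue. Both ratios share the 7 dpa level, and the dotted lines mark the 1.5-fold limit of the rule. Most points lie to the right of 1, as 68 members were highest at 3 dpa, while gpc4 and itga5 lie at the lower left, being highest at 7 dpa.

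The rule summed the transcripts of a component, and the transcripts themselves were not used in it singly. The members held 237 transcripts, with 52 members of a single transcript, 25 of a pair and 23 of 3 or more. A single transcript was also usual among the even components at large, at 53.5%. The most transcripts, 19, belonged to comp55545_c1, an unnamed component with 2.25, 62.5, 57.4 and 45.2 CPM. Among the 46 members with several transcripts and at least 20 reads at 0 dpa, the share of reads that had moved between transcripts from 0 dpa to the mean of the later libraries had a median of 31.7%. It was over 50% in 9 of them and under 10% in 8. In 38 of the 48 members with several transcripts the same transcript was the most abundant at 3, 7 and 14 dpa, and in 25 it was also the most abundant at 0 dpa. These shifts and counts were not computed for the even components at large. Shares at 0 dpa rest on few reads in some members, so nothing particular to the members is read from them.

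A value of 0 was listed for 75 of the 237 transcripts before amputation, and 24 of these, in 18 members, had 100 reads or more in each later library. The 75 are 31.6% of the members' transcripts, against 34.6% of all transcripts and 20.2% of those of the even components. The 24 are 10.1%, against 2.23% of the transcripts of the even components. The rule ranked components by their later level over that at 0 dpa, which favours few reads at 0 dpa, and nothing is read from these shares. The assembler separated the cx43.4 component into a pair of transcripts. In order of stage the first had 130, 1117, 1330 and 1353 reads and the second had 0, 1699, 1806 and 1001. The second transcript thus made up 60.3% of the component at 3 dpa (58.5% to 62.1% by the Wilson method), 57.6% of it at 7 dpa (55.9% to 59.3%) and 42.5% of it at 14 dpa (40.5% to 44.5%). Its 0 of 130 reads at 0 dpa allows a share of up to 2.31%. Set against 3 reads under library totals, the second was 582-, 543- and 340-fold higher, while the first was 8.82-, 9.23- and 10.6-fold higher. The trimmed mean divides these folds by 2.29, 1.97 and 2.37 at 3, 7 and 14 dpa. A listed 0 can also be 1 read, so neither the 3 reads nor the share above is a strict limit. Reads shared by near-identical transcripts are divided by estimation, so the split between the pair is less certain than their sum.

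A like division was seen in gsk3b and epha7. The first gsk3b transcript was listed at 0 at 0 dpa, where 0 of 55 reads allows up to 5.45%, and had 343, 494 and 335 reads later. Its share stood first at 28.8% (26.3% to 31.5%), then at 52.9% (49.7% to 56.1%) and last at 30.4% (27.8% to 33.2%). The second had 55, 847, 440 and 766 reads. By this split the lower level of gsk3b at 7 dpa lay in the second transcript while the first was then at its highest. As for cx43.4, the division of reads between transcripts is estimated, here and in the members below, and the intervals do not cover this. For epha7 the first transcript had 0, 130, 111 and 124 reads, and 0 of 34 reads at 0 dpa allows up to 8.82%. Its share reached 24.9% (21.4% to 28.8%), 16.8% (14.1% to 19.8%) and 26.3% (22.5% to 30.4%).

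In skila the leading transcript changed. The transcript that the study's tables name had 70 reads at 0 dpa and 3851, 2551 and 3658 reads later, or 56.5-fold (44.6 to 72.6), 32.9-fold (25.9 to 42.3) and 53.3-fold (42.1 to 68.5) higher. It held 26.6% of the component at 0 dpa (21.6% to 32.3%) and 96.2%, 78.8% and 98.5% later. The other transcript had 193, 151, 688 and 57 reads, which was lower than at 0 dpa at 3 and 14 dpa and higher at 7 dpa under library totals and the trimmed mean alike. In tdg the named transcript went from 298 to 4115, 4029 and 4324 reads, from 68.3% of the component (63.8% to 72.5%) to 93.3%, 93.0% and 94.9%. The other tdg transcript was 2.20-, 1.97- and 1.72-fold above 0 dpa under library totals but at 0.962 (0.783 to 1.19), 0.999 (0.814 to 1.23) and 0.726 (0.585 to 0.902) times its 0 dpa level under the trimmed mean. The component of ptgs2b, by contrast, kept its main transcript at 95.7%, 83.5%, 88.8% and 88.5%.

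**Figure D5:**
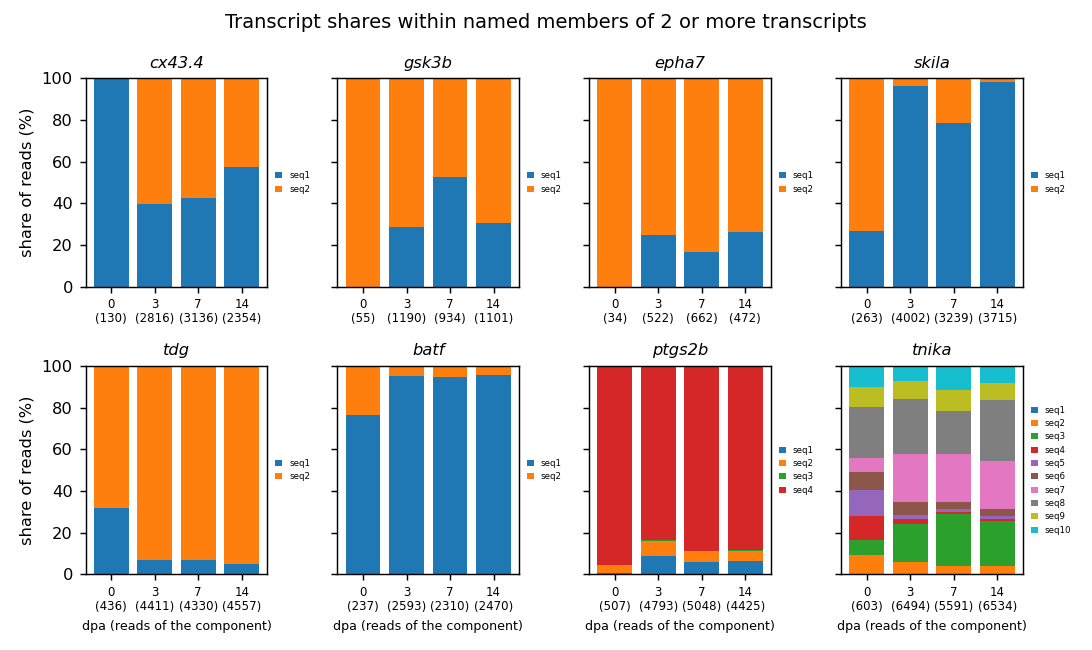
Share of a component's reads held by each of its transcripts, in percent, in the 4 libraries, for the 8 named members with several transcripts. Numbers in parentheses are the reads of the component. The second cx43.4 transcript and the first gsk3b and epha7 transcripts are at 0% at 0 dpa, and skila passes from 26.6% of its first transcript at 0 dpa to 96.2% at 3 dpa.

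For batf and tnika the zebrafish name was attached to transcripts with a small part of the reads. The named batf transcript had 56, 119, 118 and 104 reads, 23.6% of the component at 0 dpa and 4.59%, 5.11% and 4.21% later, and was 2.18-, 1.90- and 1.89-fold higher under library totals but at 0.953, 0.965 and 0.798 times its 0 dpa level under the trimmed mean, where all 3 intervals included 1. The other batf transcript, without a name of its own, had 181, 2474, 2192 and 2366 reads and was 14.0-, 10.9- and 13.3-fold higher. In tnika, a component of 10 transcripts, the named ones held 24.05% of the reads at 0 dpa and 4.22%, 2.75% and 2.33% later. Under library totals comp52027_c1_seq4 was at 2.17 times its 0 dpa level at 3 dpa (1.62 to 2.93), 0.902 times at 7 dpa (0.639 to 1.28) and 1.09 times at 14 dpa (0.778 to 1.53), and comp52027_c1_seq5 at 1.73, 1.01 and 1.05 times. With the trimmed mean the values became 0.948, 0.458 and 0.460 for the former and 0.753, 0.513 and 0.441 for the latter. The unnamed transcript comp52027_c1_seq7 went from 42 to 1485, 1290 and 1508 reads. Both names hold for these components only if all of their transcripts come from the named gene.

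Most members, 83 of 100, had no name in the tables, and 4 of these carried a zebrafish gene identifier without a symbol. The component at the head of the ranking, comp26771_c0, was a single transcript with 43 reads at 0 dpa and 3657, 3274 and 2938 reads later, or 1.099, 96.0, 75.5 and 76.6 CPM. It was 87.3-fold higher at 3 dpa (64.7 to 121), 68.7-fold at 7 dpa (50.9 to 95.1) and 69.7-fold at 14 dpa (51.6 to 96.5). The next in rank, comp45619_c0, had 12 reads at 0 dpa and 1387, 1090 and 1108 later. Its fold at 3 dpa, 119, was the highest of all members and, on so few reads at 0 dpa, the least precise of those named here (67.7 to 230.3). Ranks 3 to 5, comp59173_c0, comp56855_c0 and comp56659_c0, had 1.15 to 2.76 CPM at 0 dpa and 41.1 to 77.1 CPM later.

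The most abundant member, comp56138_c0, had 75.7 CPM at 0 dpa and 1139, 824 and 792 CPM at 3, 7 and 14 dpa. Its main transcript at 0 dpa held 83.3% of the reads there (81.9% to 84.6%) and 5.43%, 19.5% and 30.7% later. At 3 dpa that transcript was at 0.982 times its uninjured level (0.928 to 1.04) under library totals and at 0.429 times under the trimmed mean. By 7 and 14 dpa it was above its uninjured level under both scalings. A transcript that was minor at 0 dpa went from 452 to 28896, 26548 and 17600 reads. Another of its transcripts had 7 reads at 0 dpa and 5613, 448 and 1284 later. The even level of this component was therefore a sum over uneven transcripts. The next in abundance, comp42920_c0, was a single transcript with 36.2, 511, 449 and 383 CPM. It was followed by comp58000_c0 with 32.2, 299, 230 and 294 CPM, sdc3, and comp41314_c0 with 19.6, 214, 218 and 162 CPM. In comp41314_c0 the transcript comp41314_c0_seq3 had 0, 217, 2148 and 69 reads, a peak at 7 dpa inside an even component.

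The courses of single transcripts were then compared among the regenerating libraries. Of 127 transcripts with at least 50 reads in each later library, from members with several transcripts, 71 differed by more than 1.5-fold between the regenerating libraries and 34, in 22 members, by more than 2-fold. These are 55.9% and 26.8%, near the 49.8% and 23.6% of the 9290 such transcripts of all even components. Among members with at least 20 reads at 0 dpa the shares shifted most in comp53483_c0, with 10 transcripts and 22, 489, 792 and 486 reads. Its leading transcript later, with 254, 365 and 223 reads, was listed at 0 at 0 dpa, where 0 of 22 reads allows up to 13.6%. Of the 129 transcripts with 20 reads or more at 0 dpa 1 was lower at every later stage under library totals, comp56659_c0_seq5, with 38, 15, 12 and 16 reads. Under the trimmed mean 5 were lower at every later stage. Under either scaling comp56659_c0_seq5 was the 1 transcript whose counting intervals lay below its 0 dpa level at every later stage. The rule chose components that rose, and nothing is read from these counts.

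The last members inside the first 100 were comp58000_c0, comp61236_c0 and comp28088_c1, with ranking values of 2.80, 2.79 and 2.79. The first outside were comp56974_c0, comp51101_c0 and comp26534_c0, with 2.79, 2.79 and 2.78, so the edge of the set is a convention. The folds of comp28088_c1 were 11.1, 9.57 and 9.66 and those of comp56974_c0 just outside were 11.3, 9.23 and 9.34.

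Genes of regeneration pathways were looked up to see which of them shared the pattern. Of 36 components on a list of signals and receptors with a mean of at least 1 CPM, 28 were over 1.5-fold higher at all 3 stages (16 under the trimmed mean), 7 were even at 10 CPM or more, and 1, epha7, was a member. Cell cycle and mitosis genes were higher at all stages in 60 of 63 components (39 under the trimmed mean), with medians of 1.74, 1.64 and 2.11 on the log2 scale, and 23 were even and 0 were members. Over all 28836 components 24.2% were even at this level, and 1.43% of the even components are members, so an absence from the set says little about a list of this size. For the secretory pathway the counts were 32 of 33 higher (15 under the trimmed mean) and 29 even, with medians of 1.70, 1.53 and 1.76. The extracellular matrix list had 25 of 39 higher (12 under the trimmed mean) and 5 even, and its medians, 1.22, 1.73 and 2.06, went up with time. Matrix proteases and their inhibitors had 17 of 22 higher (13 under the trimmed mean) and 4 even, with medians of 2.28, 2.53 and 2.56. DNA replication had 17 of 19 (4 under the trimmed mean), ribosome biogenesis 12 of 13 (5) and appendage transcription factors 8 of 21 (5). The shares to set these beside are the 56.4% and 19.9% of all components. The listed genes were named through tables of changed genes, so these counts are not independent of the changes.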

How the data were processed

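The mRNA libraries of 4 stages were used, 1 each, and the small RNA table was not used here. Trimming by the authors was with Trimmomatic, assembly with Trinity, read counting with RSEM and analysis with edgeR; strand was not given in the sources used here. The authors deposited log2 values of the read counts; 2 raised to each value above 0 was whole within 0.01% in 100% of cases, so they are unscaled reads and not CPM. A listed 0 (0 reads or 1 read) was taken as 0. Of 132496 rows 4760 repeats were dropped, and 127736 transcripts were summed to 94050 components and scaled to CPM by library totals. The rule left out 6 further components, 0 of which were in the first 100. Changes are CPM ratios with exact Clopper-Pearson intervals, or log2(CPM + 1). Shares have Wilson intervals. A listed 0 was bounded at 3 reads, which can be too low where it stood for 1 read. With 1 library a group no test was possible. Members and lists were chosen with earlier results of these data known.

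The named components were all members that the study's tables name, the first 5 in rank, the 5 most abundant, 3 on either side of rank 100, the one with the most transcripts and the one with the largest share shift at 20 reads or more. No value of those tables was used. Of the 17 names, 11 matched a symbol in the RefSeq gene table of the bichir (assembly ASM1683550v1), while none of its identifiers matched the transcripts, so no positions are given. Python 3.11.15, numpy 2.4.6, pandas 2.3.3 and scipy 1.17.1 were used. The ranking and the log2 changes were tested on simulated counts under the trimmed mean. That test did not cover library totals, transcript shares or intervals.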

Additional observations from a re-analysis of the deposited data

How the results depend on the processing

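Of the 100 members, 57 were again among the first 100 under a trimmed mean of log ratios (30% of ratios and 5% of abundances trimmed), which left 4120 even components and median changes of 2.26, 2.20 and 2.09 at 3, 7 and 14 dpa. Median of ratios kept 53, with 3858 components and medians of 2.16, 2.14 and 2.001. These scalings also lower the later levels against the minimum of 10 CPM; with that minimum on library-total CPM, an alternative chosen after seeing the data, the trimmed mean kept 60. A pseudocount of 5 CPM kept 55 (medians 2.61, 2.39 and 2.49), and one of 0.1 CPM gave medians of 3.88, 3.64 and 3.72 and kept 79. Evenness within 25% left 3796 components and 28 members, and within 2-fold 38 members. A minimum of 20 CPM left 4507 components and 74 members. Ranking single transcripts kept 12. Totals without the 10 most abundant components, no depth scaling, thinning to the shallowest library, a minimum of 5 CPM, ranking on the mean and, added after seeing the data, a listed 0 read as 1 and repeats kept, gave 90, 69, 95, 93, 91, 100 and 91 members. Over 14 of these alternatives cx43.4 and gpc4 stayed members in all, epha7 in 5, itga5 in 7, and mapk6 and fer in 8. Both sdc3 and mafba were among those kept in 11. The trimmed mean and median of ratios each dropped sdc3, mafba, mapk6, itga5 and epha7 from the set, and median of ratios also dropped ptgs2b. Under the trimmed mean sdc3, mafba and itga5 were no longer even, with 7 and 14 dpa levels more than 1.5-fold apart. Their changes at 7 and 14 dpa were then 2.69 and 2.03 for sdc3, 2.60 and 1.94 for mafba, and 2.35 and 1.63 for itga5. None of 630 recomputed changes of 30 components changed sign, and the lowest was 1.53. All 30 are members, chosen for their rise over 0 dpa, so nothing is read from this count. No paired analysis was possible because each stage had 1 library.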

Other observations

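Relatives of the named members were looked up after their values had been seen, and are given as values only. Some of those looked up are not shown. The second glycogen synthase kinase 3 gene, gsk3ab, had 3.78, 46.6, 26.8 and 40.8 CPM at 0, 3, 7 and 14 dpa, with the lowest regenerating level at 7 dpa as in gsk3b, and missed the evenness limit with a highest to lowest ratio of 1.74. The connexin cx43 was later than cx43.4, at 4.68, 29.2, 26.6 and 64.1 CPM. Glypican gpc1a peaked at 7 dpa with 81.4, 156, 360 and 123 CPM, and its changes at 3 and 14 dpa turned from 0.93 and 0.59 under library totals to -0.25 and -0.64 under the trimmed mean. A relative of mafba, maf, had 3.04, 4.38, 3.30 and 5.47 CPM. Its changes were 0.41, 0.09 and 0.68 under library totals and -0.47, -0.60 and -0.29 under the trimmed mean.

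Among the integrins, itga3b had 29.8, 127, 166 and 98.2 CPM, highest at 7 dpa like itga5, while itgb5 had 6.82, 27.6, 34.2 and 60.1 CPM and was highest at 14 dpa. The main fibronectin component, which the tables name both fn1a and fn1b, had 454, 338, 648 and 432 CPM. Its change at 7 dpa turned from 0.51 under library totals to -0.46 under the trimmed mean. A ligand of the pathway in which zebrafish glypican 4 acts, wnt5b, had 6.75, 11.4, 32.0 and 56.6 CPM, while gpc4 was at 99.98 CPM at 3 dpa. On the log2(CPM + 1) scale the wnt5b changes were 0.68, 2.09 and 2.89 under library totals. Under the trimmed mean they were -0.37, 1.15 and 1.68, so the sign at 3 dpa depended on the scaling. The activin subunit inhbab had 0.639, 13.5, 18.9 and 8.16 CPM, and the co-repressor skila 6.72, 105, 74.7 and 96.8 CPM.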
